A study of Mus musculus with 27 samples.

Results

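Oxidative phosphorylation is run by 5 membrane complexes, and the genes of their nuclear-encoded subunits were followed here in mouse kidneys clamped for 0 to 30 min. The members were taken by symbol: every listed gene whose symbol begins with Nduf, Uqcr, Atp5, Cox4, Cox5, Cox6, Cox7 or Cox8, together with Cyc1 and the genes Sdha to Sdhd, if its level was above 0 FPKM in at least 3 of the 27 kidneys. FPKM is the number of fragments scaled by the length of the transcript and by the number of fragments mapped, a level per length. Of 19392 genes listed, 96 symbols matched and 94 were kept, since Cox7b2 and Cox8c were above 0 in only 1 kidney each. The 94 members were 40 genes of complex I, 4 of complex II, 9 of complex III, 16 of complex IV, 17 of complex V and 8 assembly factors of complex I with Ndufaf symbols, which are counted apart from the 86 subunits. The filter on low values did not depend on the groups, and all 94 members were among the 18188 genes tested. The kidneys came from C57BL/6 mice in a model where the right kidney was excised and the left renal pedicle clamped, on a heated platform. The ischemia times were 0 (sham), 16, 18, 20, 22, 24, 26, 28 and 30 min. Reperfusion lasted 24 h until the left kidney was removed, and each ischemia time had 3 mice. The study lists 0 min among the times of this model, but does not say outright whether sham mice also lost the right kidney. The animals' age is not given in the sources used here.

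Complexes I to IV pass electrons from NADH and succinate to oxygen, and all but complex II pump protons out of the mitochondrial matrix. Complex V, the ATP synthase, makes ATP as the protons return. Complex II is also the succinate dehydrogenase of the citric acid cycle and is the complex with no mitochondrially encoded subunit. Proximal tubule cells, the bulk of the renal cortex, are dense in mitochondria and depend on this pathway for salt and solute transport. The subunits encoded in mitochondrial DNA are not analysed here.

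In the sham kidneys the 86 subunits had a median level of 251 FPKM against 3.37 FPKM over all genes listed, and 78 of the 86 were at 50 FPKM or more. The level per length was highest for Atp5b, the catalytic β subunit of ATP synthase, at 1579.5 ± 15.2 FPKM (SD, n = 3), and lowest for Cox8b, the muscle form of a small complex IV subunit, at 0.130 FPKM. The tissue had the markers of kidney: 15 proximal tubule genes summed to between 7769 and 8640.3 FPKM in the sham kidneys. Their sum was between 6079 and 7911 FPKM at 26 min, between 3720 and 3780 at 28 min and between 1832 and 2825 at 30 min. Of the 15 genes, 12 were lower at 28 than at 26 min, beside 8.52% of all tested genes. Against sham, 9 were lower at 28 min and 13 at 30 min, beside 23.6% and 25.4%. The 7 injured tubule markers were all higher at 16, 28 and 30 min, beside 9.43%, 24.5% and 26.9% of all tested genes. Unsorted kidney tissue was measured, so fewer cells of a type and less RNA per cell cannot be told apart. The study fixed part of the left kidney for staining, and which part gave the RNA is not stated. The part of these cell markers in the results was not tested. In 3 kidneys (18 min replicate 1, 20 min replicate 1 and 22 min replicate 3) Cox8b stood at 16.7, 6.48 and 23.8 FPKM against at most 0.96 FPKM in the other kidneys. The same 3 kidneys held 24.5, 7.03 and 19.3 FPKM of Adipoq, a gene of fat cells, against at most 1.79 FPKM elsewhere, so levels of Cox8b are given by kidney only. Striated muscle markers summed to at most 1.95 FPKM in any kidney.

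Across the ischemia times the subunits moved little up to 24 min and together at 28 and 30 min. At 28 min, 54 of the 86 subunits were lower than at 0 min and 4 higher, beside 23.6% of all tested genes lower and 24.5% higher. At 30 min, 62 were lower and 2 higher, beside 25.4% and 26.9% of all tested genes. A call here is an adjusted p under 0.05 in limma, fitted to quantile normalized log2(FPKM + 1) with Benjamini-Hochberg adjustment over all tested genes, and every log2 fold change is on that scale. The FPKM printed are the deposited values, before quantile normalization, so that their ratio can differ from the fitted fold change. The decreases were small: the median log2 fold change of the subunits was -0.31 at 28 min and -0.36 at 30 min, where the median of all tested genes was 0.00 and 0.00. Only Cox7a1 also passed a log2 fold change of 1, the study's second criterion, at which 4.21% of all genes were lower at 28 min and 5.59% at 30 min. For a comparison at a like level, the share called is also given among the 1831 tested genes of at least 50 FPKM on average, where 34.4% were lower and 42.6% higher at 28 min, and 38.9% and 41.9% at 30 min. Of the 78 subunits above that level, 53 and 60 were lower.

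**Figure D1:**
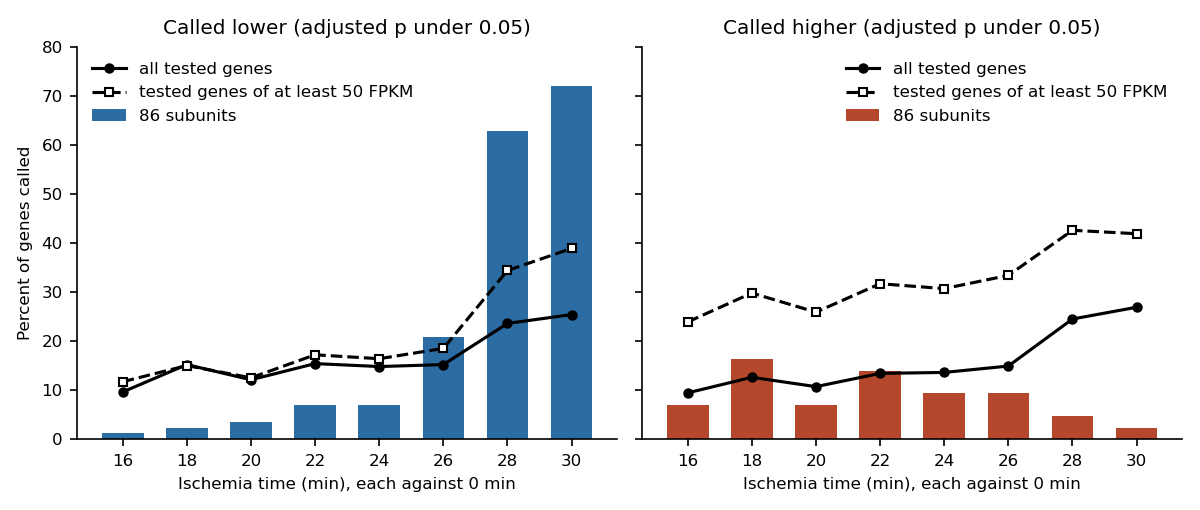
Percent of the 86 subunits called lower (left, bars) or higher (right, bars) at each ischemia time against 0 min, with the same percent over all 18188 tested genes (filled points) and over 1831 tested genes of at least 50 FPKM on average (open squares). The bars for lower calls pass both lines clearly only at 28 and 30 min, with 54 and 62 subunits, and the bars for higher calls stay below the open squares at every time.

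The step lay between 26 and 28 min. Against 26 min, 42 subunits were lower at 28 min and none was higher in limma (0 at an unadjusted p under 0.05), beside 8.52% of all tested genes lower and 10.8% higher (25% and 22.7% of the abundant genes), with a median log2 fold change of -0.24. Between 28 and 30 min only 3 subunits were lower and none higher in limma (0 at an unadjusted p under 0.05), beside 6.77% and 6.47% of all genes (15.7% and 6.06% of the abundant ones). These 3 were Ndufa8, Ndufab1 and Ndufs6, all of complex I, with log2 fold changes of -0.21, -0.21 and -0.24, named after their values were seen. Single kidneys decided these counts. The 42 became 20 without 26 min replicate 1, 16 without 26 min replicate 2, 25 without 28 min replicate 1 and 20 without 28 min replicate 3. The 3 became 0 without 28 min replicate 2 or 3 or without 30 min replicate 3, 1 without 30 min replicate 2, 5 without 30 min replicate 1 and 1 without the 3 kidneys with high Cox8b. The counts of lower subunits against 0 min were steadier, between 47 and 53 at 28 min and between 57 and 63 at 30 min with 1 kidney left out.

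Before that step the share of the 86 subunits called passed that of all tested genes in 4 cases, higher calls at 18 min (16.3%), at 22 min (14.0%) and for 16 to 26 min (19.8%) and lower calls at 26 min (20.9%), and only the last also passed that of the abundant genes. At 16 min 1 subunit was lower (Ndufb4) and 6 were higher than at 0 min, beside 9.61% and 9.43% of all tested genes (11.7% and 23.9% of the abundant ones). At 18 min 2 were lower (Ndufb4 and Atp5c1) and 14 higher, beside 15.2% and 12.6% (15% and 29.8% of the abundant ones). At 20 min the counts were 3 (with Atp5j added to those of 18 min) and 6, beside 12.1% and 10.7% (12.5% and 25.9%), and at 22 min 6 and 12, beside 15.4% and 13.4% (17.2% and 31.7%). At 24 min they were 6 and 8, beside 14.8% and 13.6% (16.4% and 30.7%), and at 26 min 18 and 8, beside 15.2% and 14.9% (18.5% and 33.4%). Over all 18 kidneys of 16 to 26 min, 15 subunits were lower and 17 higher than at 0 min, beside 20.6% and 17.6% of all tested genes, and among abundant genes 22.5% and 37.6%. The median log2 fold change of the subunits over these times was 0.00. These counts depended on the scaling. Without quantile normalization 3 subunits were lower and 21 higher for 16 to 26 min, beside 11.7% and 26.3% of all genes under the same scaling, and with median-of-ratios scaling 20 were lower and 12 higher, beside 18.1% and 18.7%. At 16 min the first gave 0 lower and 7 higher (5.55% and 15.8% of all genes) and the second 7 and 0 (9.10% and 9.56%). At 26 min they gave 14 and 7 (9.35% and 22.4%), and 31 and 1 (14.6% and 14.8%). Without quantile normalization the counts lower and higher were 0 and 21 at 18 min (7.86% and 19.6%), 1 and 12 at 20 min (6.77% and 16.9%), 1 and 15 at 22 min (9.17% and 19.8%) and 1 and 16 at 24 min (8.04% and 20.9%). Median-of-ratios scaling gave 3 and 4 at 20 min (10.5% and 11.7%) and 5 and 6 at 22 min (13.5% and 14.2%). The shares of all genes moved with the scaling as well. Single kidneys weighed as much. Without 0 min replicate 2 the 17 became 7, and without 0 min replicate 1 the 15 became 5. At 16 min 16 subunits were lower without 16 min replicate 3, none without 16 min replicate 2 or 0 min replicate 2, and 1 was higher without 0 min replicate 2 and 3 without 16 min replicate 1. Over 18 to 26 min, leaving out 1 kidney gave between 0 and 2 lower at 18 min, 0 and 9 at 20 min, 1 and 6 at 22 min, 1 and 8 at 24 min and 8 and 17 at 26 min. The lowest of these were without sham replicate 1 or 2 or 18 min replicate 1, without 20 min replicate 2, without 22 min replicate 3, without 24 min replicate 1 and without 26 min replicate 3, and the 9 without 20 min replicate 3. The counts of higher subunits ranged from 5 to 15 at 18 min, 6 to 7 at 20 min, 6 to 12 at 22 min, 6 to 14 at 24 min and 4 to 8 at 26 min, lowest without sham replicate 2 at 18 and 22 min and, at 26 min, also without 26 min replicate 1, and highest without 24 min replicate 1 at 24 min.

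**Figure D2:**
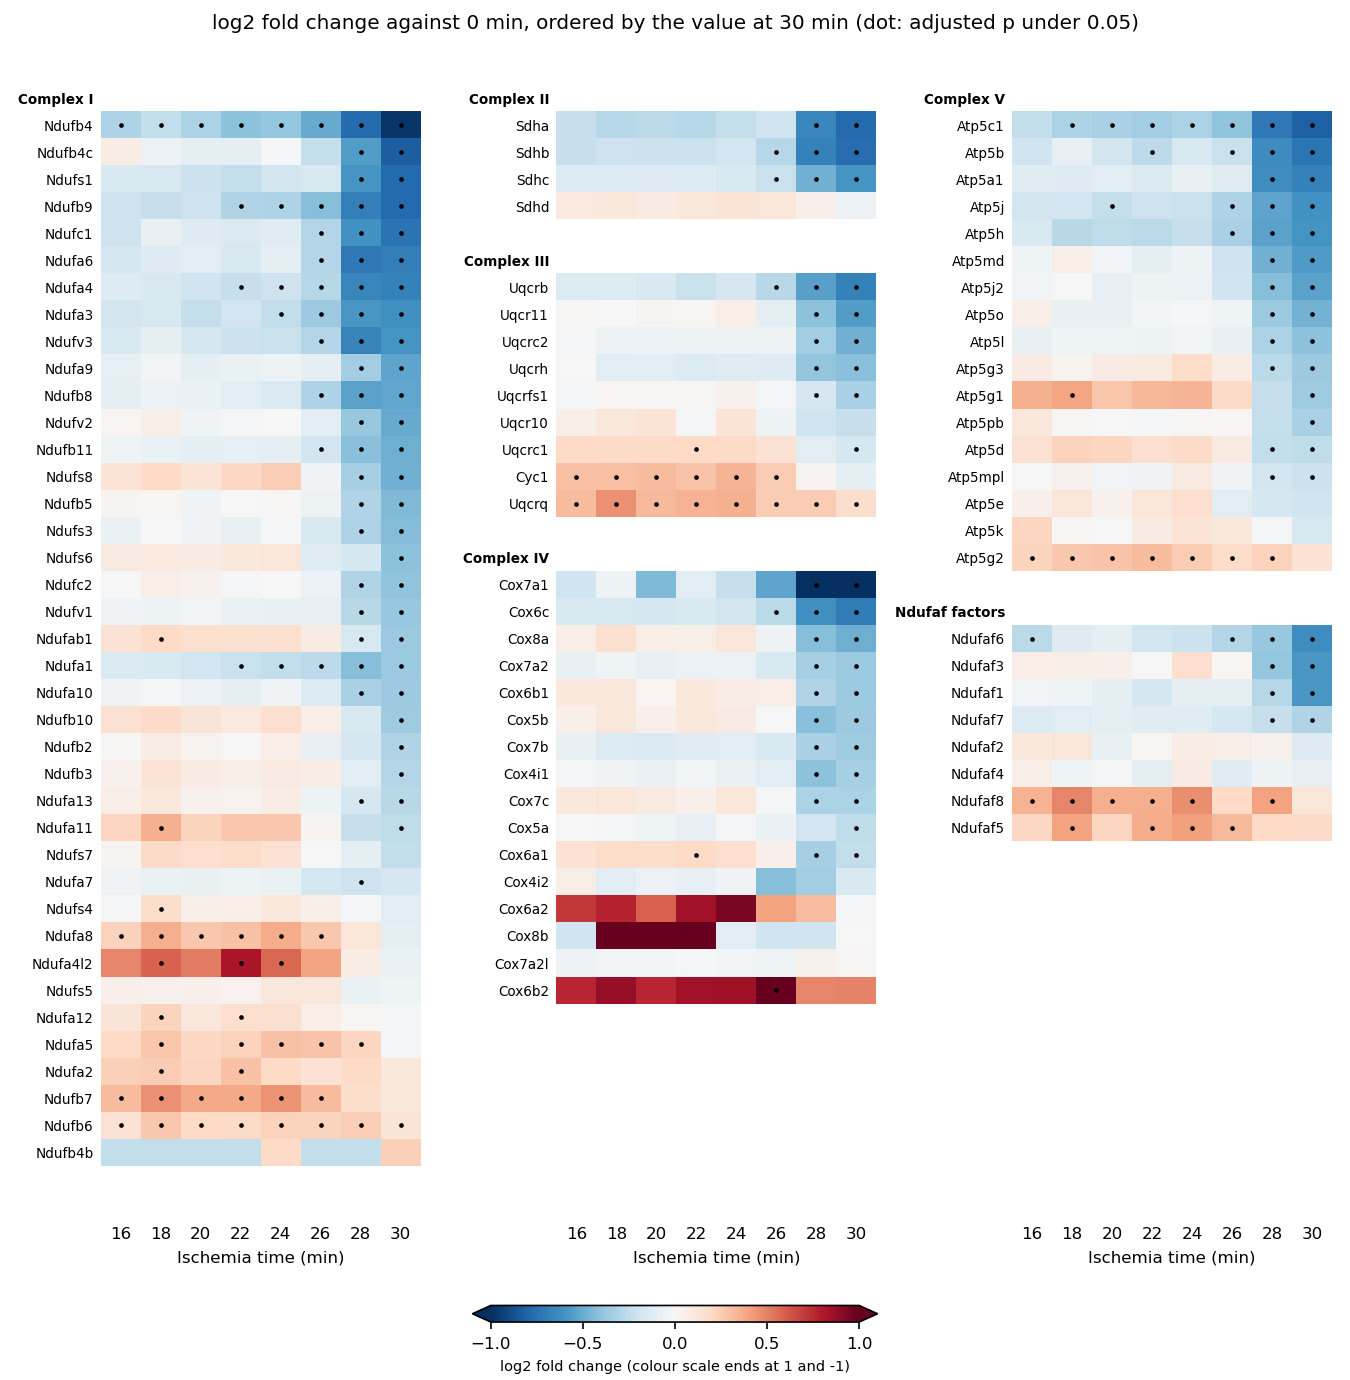
Colour gives the log2 fold change of 93 of the 94 members against 0 min at 8 ischemia times, grouped by complex and ordered by the value at 30 min, with a dot where the adjusted p was under 0.05. Blue fills most of the columns at 28 and 30 min, while Ndufb4, Atp5c1 and Sdha were already blue at shorter times and Ndufb6, Cyc1, Uqcrq and Atp5g2 were red with a dot at all times from 16 to 26 min.

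The same course is seen in single kidneys. The 86 subunits together held 5.44%, 5.11% and 5.24% of the summed FPKM in the 3 sham kidneys. They held 5.49%, 4.98% and 5.90% at 16 min, 5.44%, 5.31% and 4.76% at 26 min, 4.26%, 4.39% and 4.34% at 28 min and 4.06%, 4.03% and 3.86% at 30 min. The kidneys of 28 and 30 min all lay below every sham kidney and every kidney of 26 min, and those of 30 min below those of 28 min, while 16 min overlapped with sham. In an exact permutation test of 3 kidneys against 3, two-sided, p was 0.1 for 28 against 0 min, 30 against 0 min, 28 against 26 min and 30 against 28 min, the smallest value this design allows, and 0.6 for 16 against 0 min. The share moves with other abundant transcripts too: Kap, a gene of proximal tubule cells, took 8.96% of the summed FPKM at 0 min and 1.12% at 30 min. With Kap left out of the sum the subunits held 5.78% ± 0.192 (SD, n = 3) at 0 min and 4.03% ± 0.0990 (SD, n = 3) at 30 min.

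**Figure D3:**
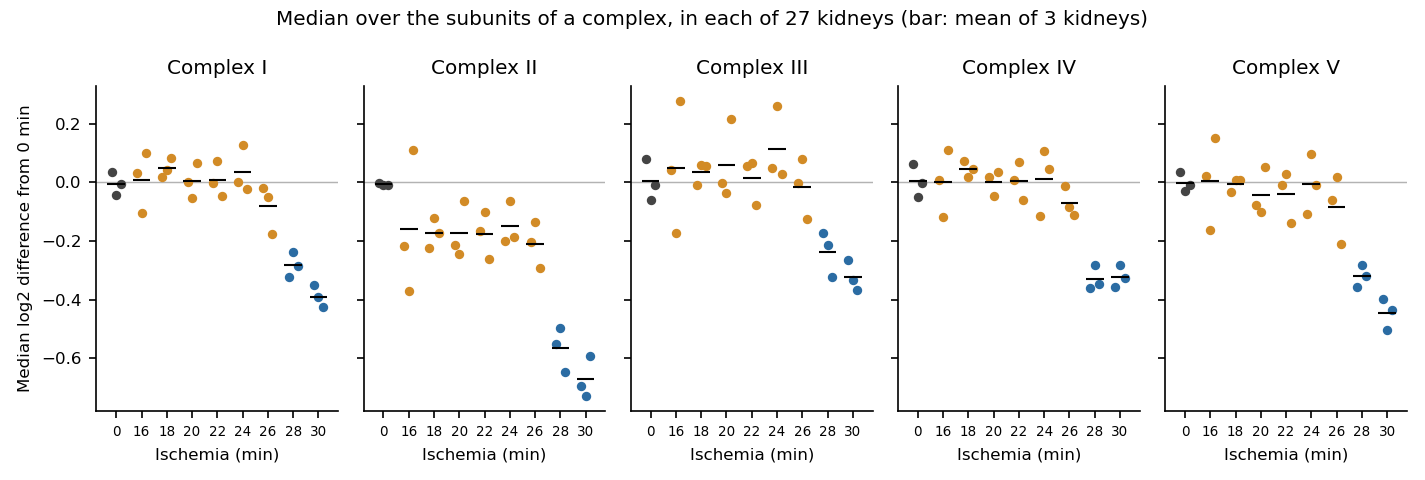
Each point is 1 kidney and gives the median, over the subunits of a complex of at least 1 FPKM on average, of the log2 difference from the mean of the sham kidneys, with a bar for the mean of 3 kidneys. All 6 kidneys of 28 and 30 min lie below zero in every complex, and complex II, with 4 genes, lies lowest at 28 and 30 min and below zero in 17 of the 18 kidneys of 16 to 26 min.

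Promoters were compared because so many members moved together. RefSeq windows of 300 bases (250 before and 50 after the start, GRCm38.p6) were at hand for 69 of the 86 subunits and searched on both strands for 4 motifs of factors known to act on these genes. The NRF1 motif, GCGC and TGCGC with any 1 base between them, was in 16 of the 69 windows (23.2%), against 7.97% of the windows of 14320 tested genes. The ETS motif CCGGAAG, bound by GABP, was also in 16 (23.2%, against 14.2%), the YY1 motif AAGATGGCG in 6 (8.70%, against 2.37%), and the estrogen-related receptor motif TCAAGGTCA in 2, Sdhd and Atp5g3 (2.90%, against 0.342%). No ETS match overlapped a YY1 match, and 33 of the 69 windows held at least 1 of the 4. Sorted by the call at 30 min, the NRF1 motif was in 10 of 51 subunits that were lower and in 6 of 17 that were not called, and the ETS motif in 11 of 51 and 4 of 17. Sorted by the call for 16 to 26 min, the NRF1 motif was in 3 of 11 lower, 6 of 13 higher and 7 of 45 uncalled subunits. These are matches of letters only. Of 66 promoters checked, 58 had the bases after the start within the first 400 bases of a transcript. Whether each window sits at the start in use in these kidneys was not tested. The 250 bases before the start are printed below, 5′ to 3′ on the gene's strand, for 4 members with different courses, with the NRF1 and ETS matches in capitals: Sdha (chr13:74350241-74350490, minus strand), which was lower at 28 and 30 min, Sdhd (chr9:50603850-50604099, minus strand), the complex II gene that was not called, Cox7a1 (chr7:30183921-30184170, plus strand), with the largest decrease, and Cox6a1 (chr5:115348959-115349208, minus strand), higher at 16 to 26 min and lower at 30 min.
Sdha: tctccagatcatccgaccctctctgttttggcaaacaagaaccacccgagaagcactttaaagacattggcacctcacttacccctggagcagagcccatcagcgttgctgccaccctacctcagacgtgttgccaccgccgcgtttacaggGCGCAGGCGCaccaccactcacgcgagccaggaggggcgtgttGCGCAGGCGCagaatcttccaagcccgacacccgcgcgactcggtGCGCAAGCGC
Sdhd: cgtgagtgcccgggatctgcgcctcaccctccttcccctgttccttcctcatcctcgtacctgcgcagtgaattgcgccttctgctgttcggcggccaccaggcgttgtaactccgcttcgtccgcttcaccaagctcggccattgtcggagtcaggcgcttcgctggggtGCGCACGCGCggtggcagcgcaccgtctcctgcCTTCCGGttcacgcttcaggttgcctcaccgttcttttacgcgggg
Cox7a1: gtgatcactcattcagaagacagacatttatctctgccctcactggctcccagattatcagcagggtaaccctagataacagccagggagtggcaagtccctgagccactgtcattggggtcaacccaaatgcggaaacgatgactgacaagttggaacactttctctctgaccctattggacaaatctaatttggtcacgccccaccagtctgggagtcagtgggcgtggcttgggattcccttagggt
Cox6a1: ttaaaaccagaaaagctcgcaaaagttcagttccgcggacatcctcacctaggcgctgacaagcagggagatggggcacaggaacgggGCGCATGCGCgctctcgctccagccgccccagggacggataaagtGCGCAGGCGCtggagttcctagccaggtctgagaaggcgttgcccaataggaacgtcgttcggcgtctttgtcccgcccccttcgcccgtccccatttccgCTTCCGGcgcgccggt
Sdha has 3 NRF1 matches, Cox6a1 has 2 with an ETS match near its start, Sdhd has 1 of each, and Cox7a1 has none of the 4 motifs. The estrogen-related receptor match of Sdhd lies among the 50 bases after the start and is not printed.

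Complex II had the largest median decrease of the 5 complexes. Sdha, Sdhb and Sdhc were lower at 28 and 30 min and Sdhd was not called at either time. Sdha encodes the flavoprotein that oxidizes succinate. Its level was 256, 262 and 254 FPKM in the sham kidneys, 154, 165 and 149 at 28 min and 139, 139 and 139 at 30 min, and it ranged from 187 to 284 (median 214) over the 18 kidneys of 16 to 26 min. All 6 kidneys of 28 and 30 min were below every other kidney. The log2 fold change was -0.65 ± 0.11 (SE), adjusted p = 6.8e-05, at 28 min and -0.78 ± 0.11 (SE), adjusted p = 6.6e-06, at 30 min, where it fell by 41.7%. Sdhb, the iron-sulfur subunit, was at 308, 298 and 325 FPKM in sham, 193, 202 and 185 at 28 min and 169, 165 and 180.1 at 30 min, with log2 fold changes of -0.67 (adjusted p = 3e-05) and -0.76 (adjusted p = 4.9e-06). Sdhc, a membrane anchor that binds quinone, was at 328, 318 and 309 FPKM in sham, 230.2, 233 and 225 at 28 min and 201, 204 and 191 at 30 min, with log2 fold changes of -0.48 (adjusted p = 7.2e-06) and -0.59 (adjusted p = 3.1e-07). In both genes the kidneys of 28 and 30 min again lay below all others. These calls at 30 min held with any 1 kidney left out, as did those of every subunit given with its kidneys' values as lower at 30 min except Atp5g1. Sdhd, the other anchor, was at 175, 169.6 and 172 FPKM in sham, from 158 to 216 (median 190.3) at 16 to 26 min, 166, 167 and 169 at 28 min and 157, 147 and 145 at 30 min. Its log2 fold change was -0.06 ± 0.08 (SE), adjusted p = 0.58, at 30 min, with the 3 kidneys of 30 min below the 3 of sham in FPKM. This depended on the scaling, since it was -0.20 (adjusted p = 0.047) without quantile normalization and -0.33 (adjusted p = 0.0038) with median-of-ratios scaling, still the smallest decrease of the 4 genes. For 16 to 26 min Sdha, Sdhb and Sdhc were called lower with log2 fold changes of -0.25, -0.23 and -0.15, and Sdhd was not (0.11). Without quantile normalization Sdha alone of the 3 kept its call, and after rescaling to TPM none did. Sdha and Sdhb lost it without any 1 of the 3 sham kidneys and without the 3 kidneys with high Cox8b, and Sdhc without sham replicate 1 or 2.

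**Figure D4:**
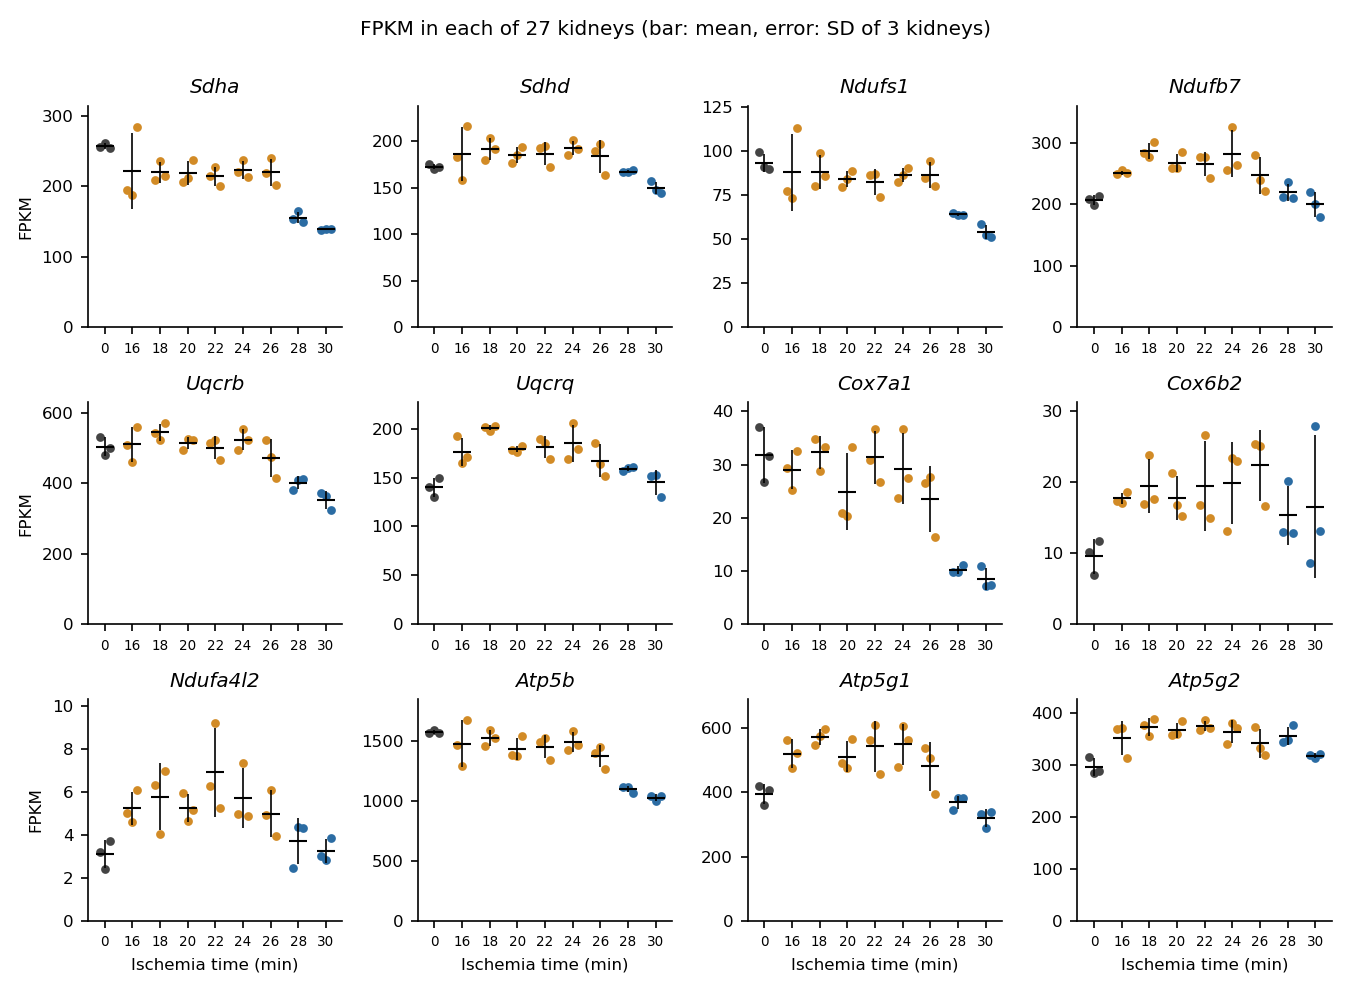
FPKM of 12 named members in each of the 27 kidneys (points) with the mean and SD of the 3 kidneys per ischemia time. Sdha, Ndufs1, Uqcrb, Cox7a1 and Atp5b are lowest at 28 and 30 min, and Ndufb7, Uqcrq, Cox6b2, Ndufa4l2, Atp5g1 and Atp5g2 have higher means at 16 to 24 min than in sham.

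In complex I, NADH dehydrogenase, 24 of 40 genes were lower and 2 higher at 28 min, and 28 were lower and 1 higher at 30 min, with medians of -0.26 and -0.37. The 7 core subunits, which carry the flavin, iron-sulfur clusters and quinone site, were all below sham on the log2 scale and 6 were called lower at both times, Ndufs7 being the exception at both. Ndufs7, which binds a cluster beside the quinone site, had a log2 fold change of -0.25 (adjusted p = 0.053) at 30 min, and it was called lower there under 5 alternatives, among them no quantile normalization with -0.40 (adjusted p = 0.0076). Ndufs1, the largest subunit and a carrier of iron-sulfur clusters, was at 99.4, 91.0 and 90.0 FPKM in sham, from 73.6 to 113 (median 85.4) at 16 to 26 min, 64.9, 63.5 and 63.9 at 28 min and 58.9, 52.7 and 51.4 at 30 min. All kidneys of the longest 2 times were below all others, with a log2 fold change of -0.78 ± 0.12 (SE), adjusted p = 1.3e-05, at 30 min. Of the 33 accessory subunits, 18 were lower and 2 higher at 28 min and 22 lower and 1 higher at 30 min. Ndufb4, an accessory subunit of the membrane arm, had the largest decrease of the complex: 437, 449 and 446 FPKM in sham, 412, 378 and 401 at 16 min, 265, 313 and 302 at 28 min and 229, 259.5 and 214 at 30 min. Its log2 fold changes ranged from -0.24 at 18 min to -0.97 at 30 min, and its calls at 26, 28 and 30 min held under every alternative run. It was called lower at 16 to 24 min too, but without quantile normalization not at any of these times. With 1 kidney left out the call was lost at 16 min without 0 min replicate 2 or 16 min replicate 2, at 18 min without any kidney of 0 min or 18 min replicate 1 or 2, and at 20 min without 20 min replicate 2. The kidneys of 28 and 30 min lay below sham. Ndufb4c was at 67.0, 58.9 and 61.9 FPKM in sham and 37.4, 31.1 and 39.1 at 30 min, a log2 fold change of -0.83 (adjusted p = 0.00026). Ndufb4, Ndufb4b and Ndufb4c are close copies, so reads may have been divided between them and their single values are uncertain, and Ndufb4b itself was at 0.190 FPKM in sham. Ndufb6 and Ndufb7, accessory subunits of the same arm, were higher for 16 to 26 min. Ndufb6 was at 116, 114 and 115 FPKM in sham, from 123 to 149 (median 138) at 16 to 26 min, 133, 136 and 137 at 28 min and 122, 128 and 109.8 at 30 min, with no overlap with sham up to 26 min. It was called higher at every ischemia time, but with median-of-ratios scaling at 18 min alone. At 16 min the call was lost without any 1 of the 6 kidneys compared and at 20 min without 20 min replicate 2. Its log2 fold change at 30 min was 0.13 (adjusted p = 0.039), a call lost with any kidney of 0 min or with 30 min replicate 1 or 2 left out, and with median-of-ratios scaling it was -0.07 there. Ndufb7 was at 209, 198 and 214 FPKM in sham and from 221 to 326 (median 261) at 16 to 26 min, all 18 kidneys above the 3 of sham, with a log2 fold change of 0.38 ± 0.07 (SE), adjusted p = 0.00013. At 30 min its kidneys were at 219.8, 199.8 and 179 FPKM, overlapping with sham (0.11, adjusted p = 0.3).

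In complex III, which passes electrons from ubiquinol to cytochrome c, 5 of 9 genes were lower and 1 higher at 28 min, and 6 were lower and 1 higher at 30 min. The largest decreases at 30 min were in Uqcrb, which lies at the quinone site, Uqcr11, a small subunit, and Uqcrc2, a core protein. Uqcrb was at 532, 479 and 500.2 FPKM in sham, from 415 to 570.2 (median 522) at 16 to 26 min, 379, 409 and 413 at 28 min and 371, 363 and 324 at 30 min, a log2 fold change of -0.68 ± 0.09 (SE), adjusted p = 3.3e-06. Its value for 16 to 26 min (-0.18) turned to 0.02 without quantile normalization, and that call was lost when any of 14 kidneys, all 3 of sham among them, was left out. Uqcr11 was at 470.4, 412 and 441 FPKM in sham and 341, 336 and 292 at 30 min (-0.56, adjusted p = 0.00016), and Uqcrc2 at 239, 227 and 214 FPKM in sham and 151, 145 and 144 at 30 min (-0.48, adjusted p = 0.0002), with no overlap in either gene. Cyc1, cytochrome c1, and Uqcrq, a small subunit, were higher at all 6 times from 16 to 26 min in the fit described above. For Cyc1 the calls were lost without 0 min replicate 2 at 16, 18, 22 and 26 min, and also without 16 min replicate 1 or 3, 22 min replicate 1 or 2, 0 min replicate 3 at 26 min and 26 min replicate 1 or 2. Median-of-ratios scaling took them at 16, 20, 22 and 26 min for Cyc1 and at 16 and 26 min for Uqcrq. Cyc1 was at 275, 253 and 263 FPKM in sham, from 284 to 373 (median 328) at 16 to 26 min with no overlap, and 229, 223 and 226 at 30 min, where the kidneys lay below sham and its log2 fold change was -0.10 (adjusted p = 0.36). Without quantile normalization it was -0.22 (adjusted p = 0.019) there and with median-of-ratios scaling -0.35 (adjusted p = 0.001). Uqcrq was at 141, 130.5 and 149 FPKM in sham, from 152 to 207 (median 181) at 16 to 26 min and 157, 159.7 and 161 at 28 min, again with no overlap, and at 152, 153 and 131 at 30 min, which overlapped. Its log2 fold change was 0.34 ± 0.05 (SE), adjusted p = 2.7e-05, for 16 to 26 min and 0.18 (adjusted p = 0.027) at 30 min, where median-of-ratios scaling gave -0.07 and the call was lost without 0 min replicate 2 or 30 min replicate 1 or 2.

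In complex IV, cytochrome c oxidase, 10 of 16 genes were lower at 28 min and 11 at 30 min, and none was higher at either time in limma (0 at an unadjusted p under 0.05). Cox7a1, the form of subunit VIIa that prevails in heart and skeletal muscle, had the largest decrease of all 94 members. It was at 37.1, 26.7 and 31.6 FPKM in sham, from 16.4 to 36.7 (median 28.2) at 16 to 26 min, 9.71, 9.75 and 11.1 at 28 min and 10.9, 7.18 and 7.41 at 30 min. The 6 kidneys of the longest times were below all others, with log2 fold changes of -1.66 ± 0.22 (SE), adjusted p = 3.2e-06, at 28 min, -1.89 ± 0.22 (SE), adjusted p = 3.9e-07, at 30 min and -1.13 ± 0.22 (SE), adjusted p = 0.0012, for 28 against 26 min (where 1.06% of all genes were lower by more than 1). Against the mean of 16 to 26 min it was -1.63 at 30 min (3.51% of all genes lower by more than 1). Cox7a2, the widely expressed form, was at 305, 295 and 315 FPKM in sham and 232, 222 and 208 at 30 min, a log2 fold change of -0.37 (adjusted p = 0.0002), also without overlap. Cox7a1 was 9.04% to 12.1% of Cox7a2 in the sham kidneys, 3.91% to 4.58% at 28 min and 3.23% to 4.70% at 30 min. Cox7a2l, grouped here with Cox7a1 and Cox7a2, was not called: it was at 130.0, 127 and 126 FPKM in sham and 129, 124 and 110.2 at 30 min, a log2 fold change of 0.02 ± 0.04 (SE), adjusted p = 0.81. With median-of-ratios scaling it was called lower, at -0.21 (adjusted p = 0.002).

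The next largest decreases of complex IV were in Cox6c and Cox8a, small subunits around the core. Cox6c was at 862, 841 and 758 FPKM in sham, 574, 601 and 592 at 28 min and 518, 595 and 479.9 at 30 min, a log2 fold change of -0.70 (adjusted p = 2.3e-06), with no overlap. Cox8a was at 1236, 1059 and 1150.2 FPKM in sham, 904, 915 and 965 at 28 min and 868, 870.3 and 864 at 30 min (-0.49, adjusted p = 1.3e-05), also with no overlap. Cox4i1, the common regulatory subunit IV, was at 846, 826 and 937 FPKM in sham and 766, 779 and 628 at 30 min (-0.34, adjusted p = 0.00023), while Cox4i2, its form known from lung and low oxygen, was near 1 FPKM throughout, 0.830, 0.810 and 1.60 in sham and 0.570, 1.13 and 1.39 at 30 min (-0.15, adjusted p = 0.52). Cox6b1, the common form of subunit VIb, was at 914, 811 and 831 FPKM in sham and 726, 709 and 650.4 at 30 min (-0.37, adjusted p = 0.00022), without overlap. Its testis form Cox6b2 was low and was higher for 16 to 26 min: 10.1, 6.85 and 11.6 FPKM in sham and from 13.1 to 26.7 (median 17.5) at 16 to 26 min, with no overlap, a log2 fold change of 0.85 ± 0.25 (SE), adjusted p = 0.0096, a call lost without 0 min replicate 2. At 26 min it passed the log2 fold change of 1 as well (1.04, beside 2.16% of all genes), and at 30 min its kidneys were spread at 8.56, 27.8 and 13.1 FPKM (0.50, adjusted p = 0.21), called only without 30 min replicate 1. Cox6a1, the common form of subunit VIa, was at 1022, 893 and 982 FPKM in sham, from 923 to 1224 (median 1117) at 16 to 26 min and 822, 888 and 838 at 30 min. The 30 min kidneys lay below sham and those of 16 to 26 min overlapped with it. Its log2 fold change was 0.15 (adjusted p = 0.025) for 16 to 26 min, a call lost without 0 min replicate 2 or 3, and -0.25 (adjusted p = 0.0043) at 30 min. The muscle form Cox6a2 did not exceed 4.94 FPKM in any kidney and was not called against 0 min at any time. For 16 to 26 min its log2 fold change was 0.71 (adjusted p = 0.055), and it was called higher under 9 of the alternatives, 0.83 (adjusted p = 0.023) without quantile normalization.

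**Figure D5:**
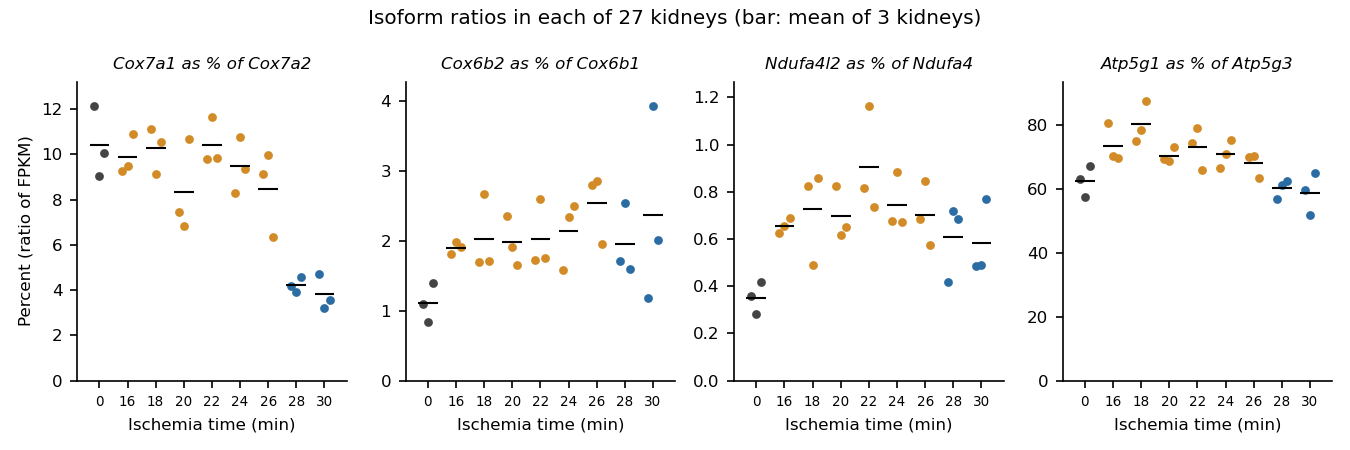
Ratio, in percent, of the FPKM of a less abundant form to that of the common form of the same subunit, in each of the 27 kidneys with a bar for the mean of 3. The ratio of Cox7a1 to Cox7a2 is lower at 28 and 30 min than in all other kidneys, and those of Cox6b2 and Ndufa4l2 to their partners are above sham at all times from 16 to 26 min.

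The genes Ndufa4 and Ndufa4l2 are counted here under complex I, after their symbols. Ndufa4 carries a complex I symbol, but its protein is now known as a subunit of complex IV. It was at 890.0, 849 and 888 FPKM in sham, from 684 to 883 (median 759.8) at 16 to 26 min, 589, 609 and 628 at 28 min and 615, 574 and 500.5 at 30 min, and its log2 fold change was -0.68 ± 0.07 (SE), adjusted p = 2.3e-07, at 30 min. Its paralog Ndufa4l2, a target of hypoxia-inducible factor, was at 3.17, 2.40 and 3.70 FPKM in sham and from 3.93 to 9.21 (median 5.19) at 16 to 26 min, with no overlap, a log2 fold change of 0.56 ± 0.16 (SE), adjusted p = 0.0085, a call lost without 0 min replicate 2. At 30 min it was at 2.99, 2.81 and 3.86 FPKM (-0.07, adjusted p = 0.83). Ndufa4l2 was 0.283% to 0.417% of Ndufa4 in sham, 0.737% to 1.16% at 22 min and 0.487% to 0.771% at 30 min.

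In complex V, 12 of 17 genes were lower and 1 higher at 28 min, and 14 were lower and none higher at 30 min in limma (1 at an unadjusted p under 0.05, Atp5g2), with a median of -0.41. The median decrease was larger in the F1 part, the head that makes ATP, where 4 of 5 genes were lower at both times and the median was -0.68 at 30 min. The 12 genes of the stalk and membrane part had a median of -0.39. The F1 genes were split, from -0.81 to -0.20, and Atp5d, at -0.25, fell less than that median of -0.39. Atp5b, the catalytic β subunit, was at 1573, 1597 and 1569 FPKM in sham, from 1272 to 1684 (median 1464) at 16 to 26 min, 1121, 1116 and 1070.3 at 28 min and 1047, 1000.4 and 1044 at 30 min. All kidneys of 28 and 30 min lay below all others, with log2 fold changes of -0.63 ± 0.07 (SE), adjusted p = 6.5e-07, and -0.73 ± 0.07 (SE), adjusted p = 5.7e-08. Atp5a1, the α subunit, was at 840.1, 796 and 801 FPKM in sham and 531, 506 and 519.6 at 30 min (-0.68, adjusted p = 2.3e-05). Atp5c1, the rotating γ subunit, was at 483, 462 and 459.9 FPKM in sham, 337, 338 and 322 at 28 min and 305, 291 and 283 at 30 min (-0.81, adjusted p = 9.9e-07). It was called lower at 28 and 30 min under every alternative run. It was called from 18 to 26 min as well, but at 18 to 24 min not without quantile normalization or with median-of-ratios scaling, and at 26 min not with TPM. Single kidneys took the call at 18 min (without 0 min replicate 1 or 2 or 18 min replicate 1), 20 min (without 0 min replicate 1 or 2 or 20 min replicate 1 or 2), 22 min (without 22 min replicate 3) and 24 min (without 0 min replicate 1 or 2 or 24 min replicate 1 or 3). Subunit c, which forms the rotating ring, is made from 3 genes whose proteins are the same once imported. Atp5g1 was at 419.5, 360.3 and 408 FPKM in sham, from 396 to 611 (median 543) at 16 to 26 min and 333, 289 and 339 at 30 min, higher for 16 to 26 min (0.32, adjusted p = 0.02) and lower at 30 min (-0.35, adjusted p = 0.034). The first call was lost without 0 min replicate 2, and the second without 0 min replicate 1 or 3 or 30 min replicate 1 or 2. Atp5g2 was at 316, 285 and 288 FPKM in sham, from 314 to 388 (median 370.4) at 16 to 26 min, 344, 349 and 376 at 28 min and 318, 314 and 322 at 30 min, higher at every time up to 28 min (0.23, adjusted p = 0.0035, at 28 min) and not called at 30 min (0.14, adjusted p = 0.053), though called higher there without 0 min replicate 1 or 30 min replicate 1 or 2. Its calls at 16, 26 and 28 min were lost with median-of-ratios scaling, that at 16 min also without 0 min replicate 2 or 3 or 16 min replicate 1 or 2, and that at 26 min without 0 min replicate 2 or 3 or 26 min replicate 1. Atp5g3, the most abundant of the 3, was at 665, 625 and 609 FPKM in sham and 559, 556 and 520.1 at 30 min (-0.36, adjusted p = 0.00082). For 16 to 26 min it was not called (0.09, adjusted p = 0.28), though it was called higher without quantile normalization (0.20, adjusted p = 0.0079) and with TPM (0.20, adjusted p = 0.012). Atp5k, subunit e at the contact of 2 ATP synthases, was at 323, 295 and 293 FPKM in sham and 318, 273 and 207 at 30 min, overlapping (-0.16, adjusted p = 0.41). The inhibitor of the ATP synthase, Atpif1, which is no member by its symbol, was at 243, 236 and 241 FPKM in sham, from 244 to 357 (median 329) at 16 to 26 min and 181, 197 and 164 at 30 min, with log2 fold changes of 0.38 (adjusted p = 0.00075) and -0.26 (adjusted p = 0.042). The kidneys of 16 to 26 min were all above sham and those of 30 min all below it, but the call at 30 min was lost when any 1 of 5 of the 6 kidneys compared was left out, all but 30 min replicate 2.

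For 16 to 26 min subunits were called in both directions, at shares near those of all tested genes. The 15 lower ones were Sdha, Sdhb, Sdhc, Uqcrb, Cox6c, Atp5b, Atp5c1, Atp5h, Atp5j, Ndufa1, Ndufa3, Ndufa4, Ndufb4, Ndufb9 and Ndufv3. Their log2 fold changes ranged from -0.36 to -0.15 (median -0.23) for 16 to 26 min and from -0.97 to -0.37 (median -0.68) at 30 min. The 17 higher ones ranged from 0.14 to 0.85 (median 0.25) for 16 to 26 min and from -0.37 to 0.50 (median -0.07) at 30 min, and the other 54 subunits from -1.89 to 0.24 (median -0.36) at 30 min. Both comparisons share the sham kidneys, and these values stand side by side with no test between them. In the contrast of 30 min with the mean of 16 to 26 min, which leaves sham out, 76 of the 86 subunits were lower and none higher in limma (0 at an unadjusted p under 0.05), beside 21.5% and 28.6% of all tested genes (40.7% and 37.7% of the abundant ones), with -0.40 as the median log2 fold change. The 17 were Ndufb6, Ndufb7, Ndufa2, Ndufa5, Ndufa8, Ndufa11, Ndufa12, Ndufab1 and Ndufa4l2 of complex I, Cyc1, Uqcrc1 and Uqcrq of complex III, Cox6a1 and Cox6b2 of complex IV and Atp5d, Atp5g1 and Atp5g2 of complex V, and no gene of complex II. Complex II has only 4 of the 86 subunits, so its absence is not read as a trait.

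The 8 Ndufaf genes encode factors that help build complex I but are not part of it. Their level was lower than that of the subunits, with a median of 18.7 FPKM in sham. At 28 min 4 were lower and 1 higher, beside 23.6% and 24.5% of all tested genes, and at 30 min 4 were lower and none higher in limma (0 at an unadjusted p under 0.05), beside 25.4% and 26.9%. Ndufaf1, a partner of the membrane arm, was at 22.9, 22.4 and 21.1 FPKM in sham, 19.8, 19.5 and 19.8 at 28 min and 16.5, 17.3 and 13.1 at 30 min, with a log2 fold change of -0.58 ± 0.08 (SE), adjusted p = 7.8e-06, and it was also lower at 30 than at 28 min (-0.29, adjusted p = 0.026), a call lost without any 1 of the 28 min kidneys or 30 min replicate 3. Ndufaf3, which acts on the arm that holds the quinone site, was at 13.9, 13.5 and 14.5 FPKM in sham and 11.2, 9.83 and 8.45 at 30 min (-0.58, adjusted p = 9.6e-06). Ndufaf6 was at 18.6, 20.1 and 16.3 FPKM in sham and 13.1, 13.7 and 10.4 at 30 min (-0.62, adjusted p = 1e-05), and Ndufaf7, a methyltransferase, at 18.6, 17.6 and 21.0 FPKM in sham and 16.8, 17.9 and 14.6 at 30 min (-0.30, adjusted p = 0.0015). The kidneys of 30 min did not overlap with sham in Ndufaf1, Ndufaf3 or Ndufaf6 and did in Ndufaf7. Ndufaf8 and Ndufaf5, which act together in assembly, were higher for 16 to 26 min. Ndufaf8 was at 33.9, 32.4 and 31.4 FPKM in sham, from 36.1 to 52.5 (median 45.6) at 16 to 26 min, 43.0, 48.0 and 48.0 at 28 min and 36.6, 37.7 and 36.1 at 30 min, with log2 fold changes of 0.37 (adjusted p = 6.8e-05) for 16 to 26 min and -0.28 (adjusted p = 0.021) for 30 against 28 min, the latter lost without 28 min replicate 2 or 3 or 30 min replicate 3. Ndufaf5 was at 13.4, 12.9 and 13.2 FPKM in sham, from 15.2 to 20.6 (median 18.1) at 16 to 26 min with no overlap, and 18.6, 16.1 and 15.1 at 30 min, with log2 fold changes of 0.32 (adjusted p = 0.0011) and 0.19 (adjusted p = 0.092). Without quantile normalization the latter was 0.31 (adjusted p = 0.0049).

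Other genes of the pathway were counted from lists. Cycs, cytochrome c itself, was at 152, 132 and 129 FPKM in sham and 148, 151 and 132 at 30 min, overlapping, with log2 fold changes of 0.23 (adjusted p = 0.013) for 16 to 26 min and 0.17 (adjusted p = 0.12) at 30 min. Of 14 tested genes of cytochrome c and coenzyme Q synthesis, 6 were lower and 3 higher at 30 min (median -0.17). Of 8 further assembly factors of complex I, 5 were lower at 30 min (median -0.46). The 22 assembly factors of complex IV had 8 lower and 2 higher (median -0.08), the 6 of complex III 3 lower and 2 higher, the 4 of complex II 1 lower, and the 3 of complex V 2 lower. Of 20 other genes of the inner and outer mitochondrial membranes, 6 were lower and 9 higher at 30 min, with a median of 0.14. Of 9 genes of proton and substrate shunts, 5 were lower and 2 higher (median -0.51). All of these stand beside 25.4% of tested genes lower and 26.9% higher at 30 min.

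Of 17 regulators of mitochondrial biogenesis, 7 were lower and 2 higher at 28 min, beside 23.6% and 24.5% of all tested genes, and 10 were lower and 3 higher at 30 min, beside 25.4% and 26.9%. Ppargc1a, the coactivator PGC-1α, was at 19.3, 16.9 and 14.1 FPKM in sham, from 8.93 to 17.6 (median 11.5) at 16 to 26 min, 7.10, 7.96 and 7.44 at 28 min and 7.30, 6.78 and 10.1 at 30 min, with log2 fold changes of -0.55 (adjusted p = 0.0076) for 16 to 26 min and -1.08 (adjusted p = 0.00012) at 30 min. Its relative Pprc1 went up, with 1.20 ± 0.17 (SE), adjusted p = 5.8e-06, at 30 min. The estrogen-related receptors Esrra and Esrrg, which PGC-1α works with, were lower at 30 min at -0.45 (adjusted p = 0.00031) and -0.66 (adjusted p = 0.00017), and neither was called for 16 to 26 min. The third, Esrrb, was lower for 16 to 26 min (-1.01, adjusted p = 0.0078, lost without 0 min replicate 1), at 28 min (-2.16, adjusted p = 7.1e-05) and at 30 min (-1.38, adjusted p = 0.0036). Esrra and Esrrg were also lower at 28 than at 26 min, at -0.37 (adjusted p = 0.0074) and -0.40 (adjusted p = 0.031). Nrf1, the factor of the motif above, was not called in any of 6 comparisons, with a log2 fold change of 0.10 ± 0.06 (SE), adjusted p = 0.18, at 30 min. Gabpa, the DNA-binding part of GABP, was lower for 16 to 26 min (-0.25, adjusted p = 0.0019) and at 30 min (-0.23, adjusted p = 0.014). It was not called at 28 min (-0.15, adjusted p = 0.12). Its partner Gabpb1 was higher at 30 min (0.29, adjusted p = 0.017). Ppargc1b, Tfb2m and Perm1 were also lower for 16 to 26 min (-0.42, -0.22 and -0.68), and Pprc1 and Polrmt higher (0.65 and 0.24). For 28 against 26 min Gabpa, Ppargc1b, Tfb2m and Perm1 were not called (0.03, 0.00, 0.01 and -0.41). In that comparison Pprc1 was higher (0.62) and Polrmt lower (-0.19). Tfam, which packs and transcribes mitochondrial DNA, was lower at 30 min (-0.47, adjusted p = 1e-05) and not called at 28 min (-0.13, adjusted p = 0.14).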

How the data were processed

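Messenger RNA of 27 mouse kidneys was sequenced on the DNBSEQ platform. Per the labels' processing notes the authors used Bowtie2, RSEM and GRCm38.p6, with no versions given. The deposited values are FPKM per gene as the authors made them (the study's text calls them RPKM), with no counts, so the depth of each sample is unknown and no counting interval can be given. Low values repeated at spaced levels, such as 0.05, 0.11 and 0.16 FPKM for Cidea, and sham Cox8b was at 0.20, 0.19 and 0 FPKM. Such values may stand for single reads, but counts were not given and a count test was not used.

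Log2(FPKM + 1) was quantile normalized, after the study's methods, and fitted with limma 3.58.1 in R 4.3.3, each ischemia time having its own mean and all 27 kidneys entering, so that all groups shared 1 estimate of the spread. Genes above 0 FPKM in at least 3 kidneys were tested, and p-values were adjusted by Benjamini-Hochberg over 18188 genes. Calls used an adjusted p under 0.05, and the study's further criterion of a log2 fold change over 1 was applied apart. Fold changes of low genes are understated by the pseudocount of 1 FPKM. For 16 to 26 min the contrast was the mean of the 6 group means against 0 min.

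The members, gene lists, tests and rule for named genes were chosen with earlier results of these data known. Named were all Sdh genes, the 3 largest decreases and 2 largest increases or smallest decreases at 30 min in each of the other complexes among genes of at least 1 FPKM, any member past the second criterion, the isoform groups with the ATP synthase inhibitor, and Ndufaf factors called in any of 6 comparisons. Genes named beside small counts were chosen after their values were seen. The values of 1 member are not reported here, though it is in the counts. Promoters and their coordinates came from RefSeq on GRCm38.p6.

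Alternatives tried were no quantile normalization, a pseudocount of 0.1 FPKM, rescaling to TPM, a filter at 1 FPKM, no filter, a fit of only the groups compared, moderation with a trend and robust, a replicate block, and each kidney left out. Median-of-ratios scaling, leaving out the 3 kidneys with Cox8b above 1 FPKM, and the contrast of 30 min with 16 to 26 min were added after seeing the data. On simulated data for 30 against 0 min (18188 genes) limma recovered 70 of 100 genes planted at a log2 fold change of 0.5 and 93 of 100 at 1, with 10 false calls. The planted genes were well expressed, had independent normal noise and were far fewer than the genes called in the data. No change below 0.5 was planted, so recovery at the subunit medians of -0.31 (28 min) and -0.36 (30 min) was not measured.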

Additional observations from a re-analysis of the deposited data

Results flagged for a closer look

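Among the subunits, 6 were called higher for 16 to 26 min and lower at 30 min, each against 0 min, and were also called lower at 30 min than in the mean of 16 to 26 min in limma. They were chosen for their opposite calls, which fixes the direction of that difference, so it is given as a description, with no test. Being lower in that contrast does not set them apart, since 76 of the 86 subunits were. Both effects against 0 min share the sham kidneys. Atp5g1, a gene of subunit c of the ATP synthase, had log2 fold changes of 0.32 for 16 to 26 min and -0.35 at 30 min, a difference of -0.67 ± 0.10 (SE). Ndufab1, the mitochondrial acyl carrier protein, had 0.15 for 16 to 26 min and -0.37 at 30 min, a difference of -0.52 ± 0.05 (SE). Ndufa11, a membrane arm subunit of complex I, had 0.23 for 16 to 26 min and -0.25 at 30 min, a difference of -0.48 ± 0.08 (SE). Atp5d, the δ subunit of F1, had 0.17 for 16 to 26 min and -0.25 at 30 min, a difference of -0.42 ± 0.07 (SE). Cox6a1 had 0.15 for 16 to 26 min and -0.25 at 30 min, a difference of -0.40 ± 0.05 (SE). Uqcrc1, a core protein of complex III, had 0.19 for 16 to 26 min and -0.18 at 30 min, a difference of -0.36 ± 0.06 (SE). Its call at 30 min was close to the threshold in limma (adjusted p = 0.048). Atp5g1 and Cox6a1 lost the call for 16 to 26 min without 0 min replicate 2, and Atp5g1 also lost that at 30 min without some single kidneys. No gene of complex II was among the 6, but it has only 4 of the 86 subunits.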

How the results depend on the processing

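The counts of lower subunits at 28 and 30 min against 0 min, 54 and 62, and for 28 against 26 min, 42, stayed within 1.5 times under every alternative run except that leaving out 1 kidney took the last to between 16 and 44. With 1 kidney left out the other 2 ranged from 47 to 53 and from 57 to 63. The smaller counts moved. For 16 against 0 min the 1 lower subunit became 0 without quantile normalization, with TPM or with only the groups compared, 7 with median-of-ratios scaling and 0 to 16 with a kidney left out, and the 6 higher became 0 with median-of-ratios scaling or only the groups compared and 1 to 6 with a kidney left out. For 16 to 26 min the 15 lower became 3 without quantile normalization or with TPM, and 5 to 19 with a kidney left out, and the 17 higher 7 to 18. The 4 higher at 28 min became 2 without quantile normalization or with TPM, 0 with median-of-ratios scaling and 3 to 4 with a kidney left out. The 2 higher at 30 min became 1 with a pseudocount of 0.1 FPKM, a filter at 1 FPKM or trended robust moderation, 0 without quantile normalization, with TPM, with median-of-ratios scaling or with only the groups compared, and 0 to 3 with a kidney left out. The 3 lower at 30 against 28 min became 0 with a pseudocount of 0.1 FPKM or only the groups compared, 1 with trended robust moderation or without the 3 kidneys with Cox8b above 1 FPKM, 5 with TPM, 8 without quantile normalization and 0 to 5 with a kidney left out. No subunit was higher for 28 against 26 min or 30 against 28 min under any of them (0 to 0 with a kidney left out). With only the groups compared, few genes of any kind were called for 16 against 0 min, 10 lower and 6 higher of 18188. For 30 against 28 min that fit called 0 lower and 0 higher, so its zeros in these 2 comparisons are not particular to the subunits. Of 112 results for named genes, 56 kept direction and call throughout and 3 turned direction: at 30 min Ndufb6 to -0.0697 and Uqcrq to -0.0739 with median-of-ratios scaling, and for 16 to 26 min Uqcrb to 0.0161 without quantile normalization and 0.0155 with TPM. Results not called at 30 min also moved: Sdhd, Cyc1 and Ndufs7 were called lower without quantile normalization or with median-of-ratios scaling, and Cox7a2l turned to -0.207 at 30 min and -0.133 at 28 min with the latter. The cause was not tested.

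Replicate numbers did not pair the kidneys: correlations of deviations over 108 same-numbered pairs had a median of -0.01 and ranged from -0.42 to 0.48. With a replicate block 53 subunits were lower and 4 higher at 28 min, 60 and 2 at 30 min, 37 and 0 for 28 against 26 min, 2 and 0 for 30 against 28 min, 1 and 5 at 16 min, and 13 and 16 for 16 to 26 min. The block took the calls of 5 named results, Cox6c and Uqcrb for 16 to 26 min, Ndufaf6 and Ndufb6 at 16 min and Uqcrb for 28 against 26 min, and changed no other named call. With FPKM alone, the depth behind low genes such as Cox8b, Cox4i2 and Ndufb4b is unknown.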

Other observations

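Marker lists of other cells were counted in the same kidneys, beside 25.4% of tested genes lower and 26.9% higher at 30 min. At 28 min these shares were 23.6% and 24.5%. Of 9 genes of the loop of Henle and distal tubule, 9 were lower at 28 min and 8 at 30 min, with a median log2 fold change of -1.57 at 30 min. Their sum was between 2329 and 2669 FPKM in sham, between 713 and 1005 at 28 min, and 694, 712 and 2521 at 30 min, where replicate 3 lay within the range of sham. Of 7 genes of the collecting duct, 6 were lower at 28 min and 4 at 30 min (median -0.57). Their sum was between 417 and 618 FPKM in sham, between 253 and 335 at 28 min, and 322, 349 and 701 at 30 min, where replicate 3 lay above every sham kidney. Of 5 podocyte genes 3 were higher at 30 min (median 0.84), of 6 endothelial genes 4 (median 0.54), of 8 genes of muscle cells, pericytes and fibroblasts 5, with 1 lower (median 0.99), and of 6 neutrophil genes 4 (median 0.99). Of 6 lymphocyte genes 3 were lower (median -0.45), and of 8 macrophage and monocyte genes 2 were lower and 2 higher (median -0.27). Of 8 striated muscle genes 1 was lower and 2 were higher, and the medians of 4 adipose and 3 tested brown fat genes, of which limma called 0 at an adjusted or unadjusted p under 0.05 at 28 and 30 min, were 0.25 and 0.09 at 30 min. The 7 injured tubule markers, all higher, had a median of 1.90 at 16 min, 2.66 for 16 to 26 min and 4.21 at 30 min. Of all tested genes, 9.43% were higher at 16 min and 17.6% for 16 to 26 min.

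In the 3 kidneys with Cox8b above 1 FPKM the genes Ucp1, the uncoupling protein of brown fat, and Cidea, a gene of fat cell lipid droplets, were also above the other kidneys. Ucp1 was at 2.76, 0.98 and 3.10 FPKM in 18 min replicate 1, 20 min replicate 1 and 22 min replicate 3, against at most 0.21 FPKM elsewhere. Cidea was at 8.23, 3.92 and 10.0 FPKM, against at most 0.86 FPKM. Elovl3, also a brown fat marker, was at 0 FPKM in all 3 of these kidneys. The whole brown fat list, which also holds Elovl3 and Ppara, did not set all 3 apart. It summed to 23.7, 23.4 and 28.2 FPKM in them, and to 24.2 FPKM in 28 min replicate 1.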
